A study of Mus musculus with 20 samples.

Results

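The transcripts described here belong to 9 genes that respond to, or carry, transforming growth factor beta (TGF-β) and YAP signals: Yap1, Wwtr1, Ctgf, Cyr61, Ankrd1, Amotl2, Tgfbi, Smad7 and Skil. They were selected by gene symbol alone, and each symbol matched 1 of the 38924 rows of the expression table. The study asked how the livers of mice lacking thrombospondin-1 (TSP-1, encoded by Thbs1), a secreted matrix protein that can activate latent TGF-β, differ from wild type (WT) livers in a dietary model of non-alcoholic steatohepatitis (NASH). Male C57BL/6J WT mice and TSP-1 knockout mice, 5 weeks old when bought and acclimated for 1 week, received either control chow or CDAHFD, a high fat diet without choline and made with defined L-amino acids, for 12 weeks. The 4 groups of 5 mice were WT on the control diet (NDWT), TSP-1 knockout on the control diet (NDKO), WT on CDAHFD (HFWT) and TSP-1 knockout on CDAHFD (HFKO). The knockout is carried by all cells of the body, the WT mice were bought separately and no littermate controls are described, so genotype and colony of origin cannot be told apart. Levels are given in FPKM, a fragment count that corrects for transcript length and for library size.

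TGF-β binds a pair of receptor kinases that phosphorylate SMAD2 and SMAD3, and these enter the nucleus with SMAD4 and switch on matrix genes together with inhibitors such as Smad7 and Skil, which limit the signal. YAP (Yap1) and TAZ (Wwtr1) are co-activators that the Hippo kinases hold in the cytoplasm. When released, they bind TEAD factors on DNA and induce genes such as Ctgf, Cyr61, Ankrd1 and Amotl2. Both pathways act in liver on hepatic stellate cells, the main collagen-producing cells, and on bile duct cells and hepatocytes. Neither pathway's activity is measured by an RNA level, since SMADs, YAP and TAZ are controlled largely through phosphorylation and location.

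The promoters are shown because the co-activators reach DNA through TEAD factors, which recognise the letters GGAATG, read on the opposite strand as CATTCC. RefSeq start site windows of build GRCm38.p6, from 250 bases before to 50 bases after the start, were on hand for 6 of the 9 genes. Of these, 5 held the letters on one of the strands, against 14.7% of all 32851 windows. Cyr61, Amotl2, Yap1 and Wwtr1 had 1 match each, Ankrd1 had 2, and Tgfbi had none. The SMAD palindrome GTCTAGAC was in 0 of the 6 windows and in 0.2% of all windows, a match to letters being a description and not evidence of binding. Capitals mark the TEAD letters in 3 stretches, which lie at chr3:145650036-145650135 on the minus strand, chr19:36119935-36120074 on the minus strand and chr9:102717694-102717793 on the plus strand and are written 5′ to 3′ in the direction of transcription.
Cyr61: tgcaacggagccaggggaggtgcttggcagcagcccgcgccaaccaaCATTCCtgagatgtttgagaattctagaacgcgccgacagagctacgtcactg
Ankrd1: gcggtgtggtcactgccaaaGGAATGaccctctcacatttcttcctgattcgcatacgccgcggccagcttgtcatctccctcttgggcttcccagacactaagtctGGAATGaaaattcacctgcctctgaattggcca
Amotl2: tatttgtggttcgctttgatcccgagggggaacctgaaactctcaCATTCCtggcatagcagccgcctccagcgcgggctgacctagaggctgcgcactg
In these stretches the first TEAD letter of Cyr61 stood at position -103 from the start, those of Ankrd1 at -210 and -123, and that of Amotl2 at -65. The Amotl2 stretch lies inside the span given below for that gene, so its window belongs to a start within the gene. The Ankrd1 stretch lies outside the span given below but inside that of the GENCODE M21 annotation, which reaches 36120099. Any relation of the letters to expression was not tested. As described below, Ankrd1 was far higher on CDAHFD in both genotypes and Amotl2 was called in neither. Cyr61 was called on CDAHFD only among the mice labelled TSP-1 null, though its diet response was not shown to differ between genotypes.

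The libraries held 15641544 to 23276326 fragments assigned to genes (median 18950483.5), so that 3 fragments on a 1 kb transcript correspond to 0.129 to 0.192 FPKM. Hepatocyte transcripts dominated every library, with the 7 hepatocyte markers summing to 25516 to 45018 FPKM. A total of 14524 genes exceeded 0.5 FPKM in at least 5 libraries and were tested with limma on log2(FPKM + 0.1). A gene was called differentially expressed at a Benjamini-Hochberg FDR under 0.05 and an absolute log2 fold change (log2FC) above 0.58. All 9 genes passed the filter, Ankrd1 only through its CDAHFD libraries, so it could enter the test only by being high there and its diet difference is given as a description. The targeted gene Thbs1 went against the labels on the control diet. Its level was 0.197 ± 0.103 FPKM in NDWT and 1.30 ± 0.390 in NDKO (SD, n = 5 each), and 4.62 ± 1.22 in HFWT against 3.44 ± 0.547 in HFKO. The gene-level value does not separate the disrupted part of the gene from the rest, so it does not check the genotype, and knockout libraries are referred to below as labelled TSP-1 null.

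The CDAHFD comparison asks which of these genes move with the diet that produces the disease. In WT, 5 of the 9 genes were called higher and 0 lower, namely Ankrd1, Ctgf, Tgfbi, Wwtr1 and Skil. Ankrd1 stays in the counts over 9 genes, although it passed the filter only through its CDAHFD libraries. Among all genes tested, 44.1% were called higher and 4.62% lower in the same comparison, so a call was common. In mice labelled TSP-1 null, 7 were called higher and 0 lower, the same 5 plus Cyr61 and Smad7, against 41.9% and 4% of all genes. With the filter set on the 10 control diet libraries alone, which leaves out Ankrd1, 4 of 8 genes were called higher in WT and 6 of 8 in mice labelled TSP-1 null, against 37.9% and 35.9% of 12117 genes. The genes' median log2FC was 0.88 in WT and 1.24 in mice labelled TSP-1 null, beside medians of 0.53 and 0.50 over all genes tested. That shift of all genes depends on the scaling to total fragments, and a rise of about its size, such as that of Cyr61 in WT, is no rise relative to the other genes. The same 5 and 7 genes had groups that did not overlap, all upward, as 50.5% and 52.7% of all tested genes did (5.7% and 5.03% did so downward).

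**Figure D1:**
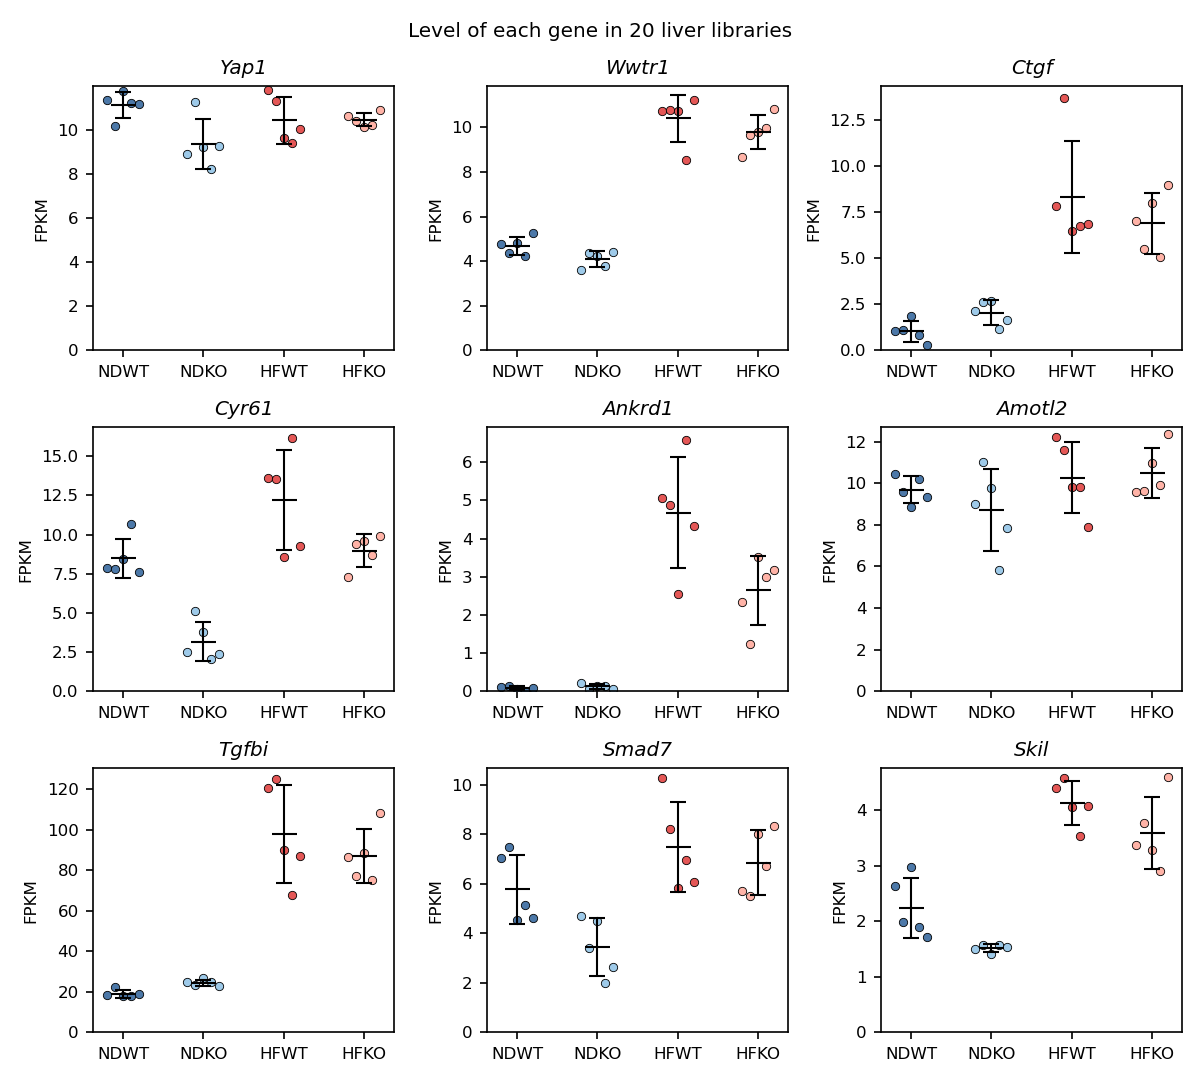
Level of each gene in the 20 liver libraries, in FPKM on a linear axis that starts at 0. Points are single mice, the long bar is the group mean and the error bars are 1 SD (n = 5), with control diet groups in blue and CDAHFD groups in red. Yap1 and Amotl2 stayed near 10 FPKM in every group, whereas Wwtr1, Ctgf, Ankrd1 and Tgfbi were higher in all CDAHFD mice than in any control diet mouse of the same genotype.

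The 2 co-activators behaved differently under the diet. Yap1 transcripts lay between 8.20 and 11.8 FPKM over all 20 mice. NDWT mice had 11.3, 10.2, 11.8, 11.2 and 11.2 FPKM, NDKO mice 8.89, 11.2, 9.20, 8.20 and 9.28, HFWT mice 11.8, 11.3, 9.63, 9.38 and 10.05, and HFKO mice 10.6, 10.4, 10.1, 10.2 and 10.9. The 4 groups overlapped throughout. The diet log2FC was -0.10 (SE 0.08, FDR 0.271) in WT and 0.17 (SE 0.08, FDR 0.0648) in mice labelled TSP-1 null. When the shift of all genes was scaled out by median of ratios, these became -0.65 (FDR 1.59e-07), which was called lower, and -0.37 (FDR 0.000192). Wwtr1, which encodes TAZ, instead rose in both genotypes. It was at 4.77, 4.35, 4.81, 4.22 and 5.28 FPKM in NDWT and at 10.7, 10.8, 10.7, 8.55 and 11.2 in HFWT. NDKO mice had 3.599, 4.35, 4.25, 3.80 and 4.43 FPKM and HFKO mice 8.69, 9.65, 9.80, 9.97 and 10.8. Every CDAHFD mouse was above every control diet mouse. The log2FC was 1.13 (SE 0.09, FDR 7.95e-10) in WT and 1.24 (SE 0.09, FDR 2.85e-10) in mice labelled TSP-1 null. Relative to all other genes the rise was smaller, with a log2FC in WT of 0.58 under median of ratios and 0.57 under quantile normalization, both just short of the fold threshold. Yap1 was the more abundant co-activator on the control diet (11.1 ± 0.583 against 4.69 ± 0.419 FPKM in NDWT), and the means lay together on CDAHFD (10.4 ± 1.07 against 10.4 ± 1.06 in HFWT). Yap1 lies on chromosome 9 (GRCm38, 7931999 to 8004596, minus strand) and Wwtr1 on chromosome 3 (57455649 to 57575910, minus strand).

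Ankrd1, an ankyrin repeat protein best known from stressed heart muscle and a standard YAP target, was barely detected on the control diet and clearly present on CDAHFD. It was at 0.122, 0.136, 0.064, 0 and 0.085 FPKM in NDWT (0 to 5 fragments per library) and 0.220, 0.075, 0.152, 0.142 and 0.056 in NDKO (2 to 8 fragments). On CDAHFD it stood at 5.05, 4.87, 2.54, 6.59 and 4.33 FPKM in HFWT (91 to 232 fragments) and at 2.34, 1.23, 3.53, 2.98 and 3.18 in HFKO (34 to 112 fragments). No control diet mouse came near the lowest CDAHFD mouse. The log2FC was 4.72 (SE 0.30) in WT and 3.55 (SE 0.30) in mice labelled TSP-1 null, given without a test because of the filter. With so few control fragments its size depends on the pseudocount, and it ranged over the alternatives from 2.35 to 6.06 in WT and from 1.65 to 4.31 in mice labelled TSP-1 null. At a pseudocount of 1 the last value lay below that of Tgfbi (1.78). The gene lies on chromosome 19 (36111965 to 36119844, minus strand).

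Ctgf and Cyr61 encode closely related secreted matrix proteins of the CCN family, and both are textbook YAP targets. Ctgf, also a TGF-β target, rose on CDAHFD in both genotypes. NDWT mice had 1.05, 1.09, 1.85, 0.835 and 0.315 FPKM and HFWT mice 7.82, 13.7, 6.47, 6.75 and 6.84. NDKO mice had 2.13, 2.65, 2.69, 1.14 and 1.63 FPKM and HFKO mice 6.997, 5.48, 8.01, 5.06 and 8.95. Diet groups did not overlap in either genotype. The log2FC was 3.00 (SE 0.32, FDR 9.37e-08) in WT and 1.74 (SE 0.32, FDR 8.48e-05) in mice labelled TSP-1 null. Ctgf lies on chromosome 10 (24595442 to 24598683, plus strand) and shares exon sequence with Gm15270 on the other strand, which had 0 to 5 fragments in any library. Yap1 shares exon sequence with Gm20416, which had 0 to 3. The source does not say whether counting used strand.

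Cyr61 followed another course. Its level was 7.84, 7.83, 8.45, 10.7 and 7.64 FPKM in NDWT and 13.6, 13.5, 8.56, 16.1 and 9.30 in HFWT, groups that overlapped. In NDKO it was 2.53, 5.10, 3.77, 2.10 and 2.37 FPKM, and in HFKO 7.28, 9.43, 9.59, 8.68 and 9.91, with no overlap. In WT the diet log2FC of 0.49 (SE 0.21, FDR 0.0379) did not pass the fold threshold and became -0.06 under median of ratios. In mice labelled TSP-1 null it was 1.54 (SE 0.21, FDR 1.76e-06). The HFKO mice thereby stood within reach of NDWT (8.98 ± 1.05 against 8.48 ± 1.25 FPKM), 2 groups that differ in both diet and genotype and were not tested against each other. Cyr61 lies on chromosome 3 (145646971 to 145649985, minus strand).

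Amotl2, an angiomotin family member that binds YAP and is itself induced by it, was not called for diet in either genotype. It ranged from 5.85 to 12.4 FPKM over all mice, with means on the control diet of 9.69 ± 0.653 for NDWT and 8.71 ± 1.97 for NDKO, and on CDAHFD of 10.3 ± 1.71 for HFWT and 10.5 ± 1.20 for HFKO. All 4 groups overlapped. The diet log2FC was 0.07 (SE 0.14, FDR 0.666) in WT and 0.29 (SE 0.14, FDR 0.0678) in mice labelled TSP-1 null, and under median of ratios these turned to -0.49 and -0.24. Amotl2 lies on chromosome 9 (102716672 to 102733418, plus strand).

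Tgfbi encodes a secreted matrix protein named for its induction by TGF-β, and it was the most abundant of the 9 transcripts in every group. NDWT mice had 18.4, 22.4, 17.8, 17.8 and 18.9 FPKM and HFWT mice 121, 125, 90.2, 67.6 and 86.9. NDKO mice had 24.7, 23.2, 26.7, 25.1 and 23.0 FPKM and HFKO mice 86.5, 77.1, 88.6, 75.1 and 108. The diet groups were far apart in both genotypes. The log2FC was 2.33 (SE 0.14, FDR 2.16e-11) in WT and 1.82 (SE 0.14, FDR 7.47e-10) in mice labelled TSP-1 null. Tgfbi lies on chromosome 13 (56609603 to 56639339, plus strand).

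Smad7 and Skil (SnoN) are inhibitors that TGF-β itself induces. Smad7 blocks the receptors and Skil represses SMAD-bound genes. Smad7 was at 7.05, 7.48, 4.55, 5.14 and 4.63 FPKM in NDWT and at 10.3, 8.21, 5.85, 6.95 and 6.09 in HFWT, groups that overlapped (log2FC 0.37, SE 0.22, FDR 0.135). It was at 4.71, 3.43, 4.50, 1.99 and 2.65 FPKM in NDKO and at 5.69, 5.49, 8.01, 6.73 and 8.35 in HFKO, which did not overlap (log2FC 1.01, SE 0.22, FDR 0.000363). Relative to all other genes neither comparison of Smad7 was called, with log2FC under median of ratios of -0.19 in WT and 0.49 in mice labelled TSP-1 null. Skil was at 2.63, 1.99, 2.98, 1.89 and 1.72 FPKM in NDWT and at 4.39, 4.57, 4.06, 3.54 and 4.08 in HFWT (log2FC 0.88, SE 0.13, FDR 8.93e-06). It was at 1.49, 1.58, 1.41, 1.57 and 1.54 FPKM in NDKO and at 3.37, 3.77, 3.28, 2.90 and 4.60 in HFKO (log2FC 1.17, SE 0.13, FDR 2.5e-07). Skil groups did not overlap between diets, but its call in WT was lost under median of ratios (log2FC 0.33) and quantile normalization (0.12), and its call in mice labelled TSP-1 null under quantile normalization (0.42). Smad7 lies on chromosome 18 (75367529 to 75395935, plus strand) and Skil on chromosome 3 (31095058 to 31122577, plus strand).

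**Figure D2:**
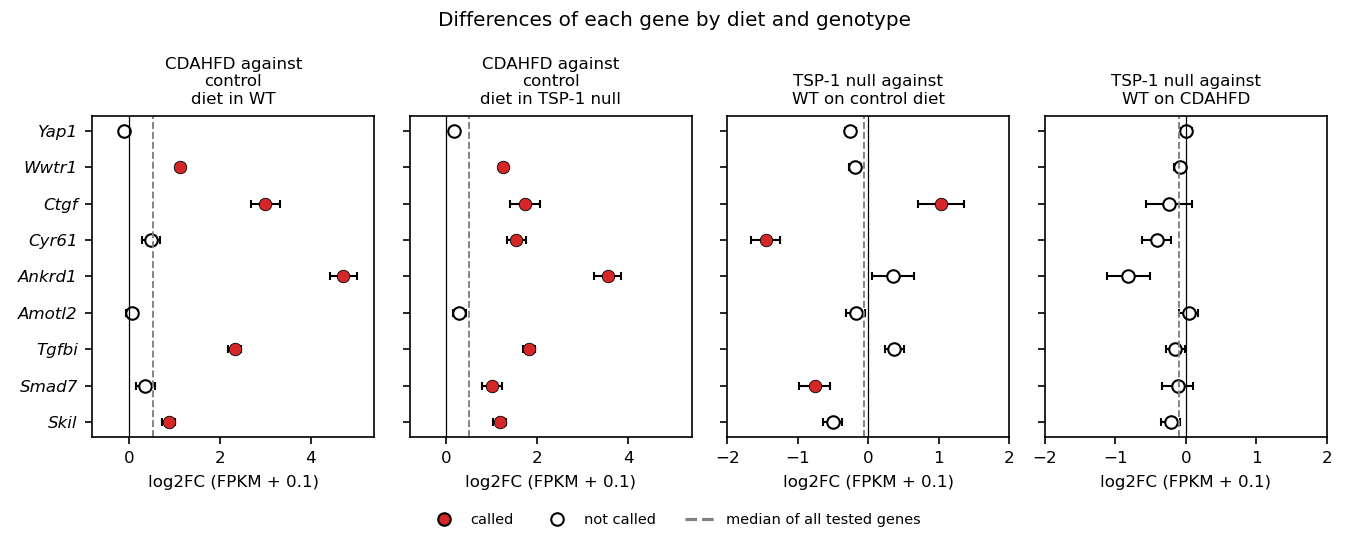
Difference of each gene in the 4 comparisons, as log2FC of FPKM + 0.1 on a linear axis, with bars of 1 SE. Red points were called at FDR under 0.05 and absolute log2FC above 0.58, open points were not, and the dashed line is the median of all 14524 tested genes. Ankrd1 is red in the diet panels, although it passed the filter only through its CDAHFD libraries. The 2 diet panels share a wider axis than the 2 genotype panels, in which Ctgf (1.03), Smad7 (-0.76) and Cyr61 (-1.46) on the control diet are the only called points.

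Marker RNAs of several cell types moved with these diet differences. All 10 stellate and myofibroblast markers were called higher in both genotypes, and their summed level rose from 14.7 to 19.9 FPKM in NDWT to 132 to 282 in HFWT, and from 16.6 to 18.8 in NDKO to 123 to 223 in HFKO. All 5 tested of 6 cholangiocyte markers were called higher, with sums of 15.2 to 18.0 FPKM in NDWT and 292 to 488 in HFWT, and 12.4 to 15.6 in NDKO and 182 to 360 in HFKO. Spp1 alone made up most of these sums, with means of 13.6 FPKM in NDWT, 379 in HFWT, 10.8 in NDKO and 252 in HFKO. Macrophage markers were called higher in 5 of 7 in WT and 6 of 7 in mice labelled TSP-1 null, and 1 of 7 was called lower in each. T and B cell markers were called higher in 6 of 6 in both genotypes, and mesothelial markers in 4 of 4 and 2 of 4. Endothelial markers were called higher in 2 and 3 of 7, beside the 44.1% and 41.9% of all genes, and hepatocyte markers lower in 2 of 7 in each, where 4.62% and 4% of all genes were. With the filter on control diet libraries alone, the markers called higher were 8 of 8 for stellate cells and 3 of 3 for cholangiocytes in both genotypes. T and B cell markers were then called higher in 3 of 3 in both, and macrophage markers in 4 and 5 of 6. Mesothelial markers were called higher in 2 of 2 in WT and 0 of 2 in mice labelled TSP-1 null. Of all genes, 37.9% and 35.9% were called higher with that filter. In bulk liver, more cells of a type and more RNA per cell cannot be told apart, and the part of these cells in the diet differences of the 9 genes was not tested.

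The comparison of genotypes on the control diet asks what differs in liver without CDAHFD. Here 1 gene was called higher in NDKO, Ctgf, and 2 were called lower, Cyr61 and Smad7. Over all genes, 1.74% were called higher and 3.03% lower. By limma, 7 of the 9 had an unadjusted p under 0.05, against 27.3% of all genes. Skil and Yap1 passed the FDR but not the fold threshold. Mean Ctgf was 1.03 ± 0.552 FPKM in NDWT and 2.05 ± 0.669 in NDKO (log2FC 1.03, SE 0.32, FDR 0.041). The groups overlapped, since NDWT replicate 3 (1.85) lay above NDKO replicates 4 and 5 (1.14 and 1.63), and without NDWT replicate 5, the lowest library at 0.315 FPKM and 18 fragments, the log2FC was 0.71 (FDR 0.11). The Ctgf call was also lost without any 1 of NDWT replicates 1 and 4, NDKO replicates 1 to 3 and HFKO replicate 1 (FDR 0.0502 to 0.097).

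Cyr61 went the other way. Mean Cyr61 was 8.48 ± 1.25 FPKM in NDWT and 3.17 ± 1.25 in NDKO, and the highest NDKO mouse (5.10) was below the lowest NDWT mouse (7.64). The log2FC of -1.46 (SE 0.21, FDR 0.000224) was called in every alternative run, between -1.64 and -1.22. Smad7 was 5.77 ± 1.39 FPKM in NDWT and 3.45 ± 1.17 in NDKO, groups that overlapped (log2FC -0.76, SE 0.22, FDR 0.0264). Its call was lost when any 1 of NDWT replicates 1 and 2 and NDKO replicates 4 and 5 was left out (FDR 0.0563 to 0.0729).

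Skil was 2.24 ± 0.538 FPKM in NDWT and 1.52 ± 0.0699 in NDKO, without overlap (log2FC -0.51, SE 0.13, FDR 0.0174). The 5 NDKO mice lay within 1.41 to 1.58 FPKM. Tgfbi was 19.0 ± 1.91 FPKM in NDWT and 24.5 ± 1.504 in NDKO, again without overlap, at log2FC 0.37 (SE 0.14, FDR 0.0802). Of all tested genes, 6.69% had NDKO wholly below NDWT and 2.33% wholly above. Yap1 had log2FC -0.25 (SE 0.08, FDR 0.0378). Wwtr1 (-0.19, FDR 0.15), Amotl2 (-0.18, FDR 0.434) and Ankrd1 (0.35, FDR 0.497) did not pass the test.

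Cell markers and early response genes were compared between the control diet groups too. The stellate and myofibroblast sums were 14.7 to 19.9 FPKM in NDWT and 16.6 to 18.8 in NDKO, and 1 of 10 markers, Acta2, was called lower. Of the cholangiocyte, endothelial, mesothelial, and T and B cell markers, 0 were called, while 1 of 7 macrophage and 1 of 7 hepatocyte markers were called higher. Ctgf and Cyr61 are themselves quickly induced by serum, so a list of 11 immediate early genes was examined after the values were seen. In it 0 were called higher and 2 lower in NDKO, Jun (log2FC -1.39, FDR 0.0207) and Atf3 (-0.85, FDR 0.0172), while the summed levels overlapped, at 73.8 to 121 FPKM in NDWT and 94.2 to 133 in NDKO. Zfp36 and Junb weighed most in these sums, at 35.9 and 19.2 FPKM in NDWT and 53.4 and 23.2 in NDKO, neither called. Jun was at 15.8 and 6.46 FPKM, so the overlap of the sums does not show that single genes stayed alike. Of all genes, 1.74% were called higher and 3.03% lower in this comparison. On CDAHFD the list had 8 of 11 called higher with diet in WT and 10 of 11 in mice labelled TSP-1 null. Of all genes, 44.1% and 41.9% were called higher. The filter on control diet libraries alone leaves out Fos and Fosb. With it, 6 and 8 of 9 were called higher, beside 37.9% and 35.9% of all genes. Between genotypes on CDAHFD, 1 of the list was called higher in HFKO, beside 0.496% of all genes called in either direction. The part of early response in the genotype difference was not tested.

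On CDAHFD, 0 of the 9 genes were called between genotypes by limma, 1 had an unadjusted p under 0.05 (17.2% of all genes did) and all 9 had overlapping groups. Over all genes, 0.496% were called in either direction, while 0.847% had HFKO wholly above HFWT and 4.13% wholly below. Ankrd1 was the gene with the unadjusted p under 0.05, at 4.68 ± 1.46 FPKM in HFWT and 2.65 ± 0.905 in HFKO (log2FC -0.82, SE 0.30, FDR 0.173). The others were Ctgf at -0.24 (SE 0.32, FDR 0.735), Cyr61 at -0.41 (SE 0.21, FDR 0.314), Smad7 at -0.11 (SE 0.22, FDR 0.819), Skil at -0.21 (SE 0.13, FDR 0.434) and Tgfbi at -0.15 (SE 0.14, FDR 0.601). Amotl2 (0.04, FDR 0.904), Yap1 (0.01, FDR 0.97) and Wwtr1 (-0.08, FDR 0.634) lay nearest to 0. The cholangiocyte sums were 292 to 488 FPKM in HFWT and 182 to 360 in HFKO, most of it Spp1 (means 379 and 252). Of the markers of the 7 cell type lists, 0 were called.

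Whether the genotype difference itself changed with diet was tested by the interaction of the 2 factors. By limma, 0 of the 9 genes were called, beside 0.647% of all genes in either direction. An unadjusted p under 0.05 was found for 6 of the 9, against 15.1% of all genes. Cyr61 came closest, with an interaction of 1.05 (SE 0.29, FDR 0.0843). Ctgf had an interaction of -1.27 (SE 0.46, FDR 0.186), opposite in sign, Ankrd1 -1.16 (SE 0.43, FDR 0.191), and Tgfbi -0.51 (SE 0.19, FDR 0.198). Without NDKO replicate 2, the NDKO mouse with the highest Cyr61, the interaction of Cyr61 was 1.24 (FDR 0.02) and was called. The diet responses of the 9 genes were thus not shown to differ between genotypes in the full set of mice.

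Because Ctgf and Cyr61 moved apart on the control diet, their ratio within each library was examined, a measure chosen after the values were seen and free of library scaling. In NDWT the log2 ratio of Ctgf to Cyr61 was -2.90, -2.85, -2.19, -3.67 and -4.60. In NDKO it was -0.25, -0.95, -0.49, -0.88 and -0.54, so every NDKO mouse was above every NDWT mouse. In HFWT it was -0.80, 0.01, -0.41, -1.26 and -0.44, and in HFKO -0.06, -0.78, -0.26, -0.78 and -0.15. NDWT thus stood below all other groups, while the other 3 overlapped. The means differed by 2.62 between genotypes on the control diet and by 2.66 between diets in WT (exact permutation test, 2-sided, over 252 arrangements, p = 0.00794 for each, the smallest p possible, 0.0159 after adjustment over 4 comparisons). The differences of 0.22 between diets in mice labelled TSP-1 null (exact p = 0.333, adjusted 0.444) and of 0.17 between genotypes on CDAHFD (exact p = 0.516, adjusted 0.516) did not pass. These comparisons share groups, and the choice of the ratio followed the values, so the p-values are not independent evidence.

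**Figure D3:**
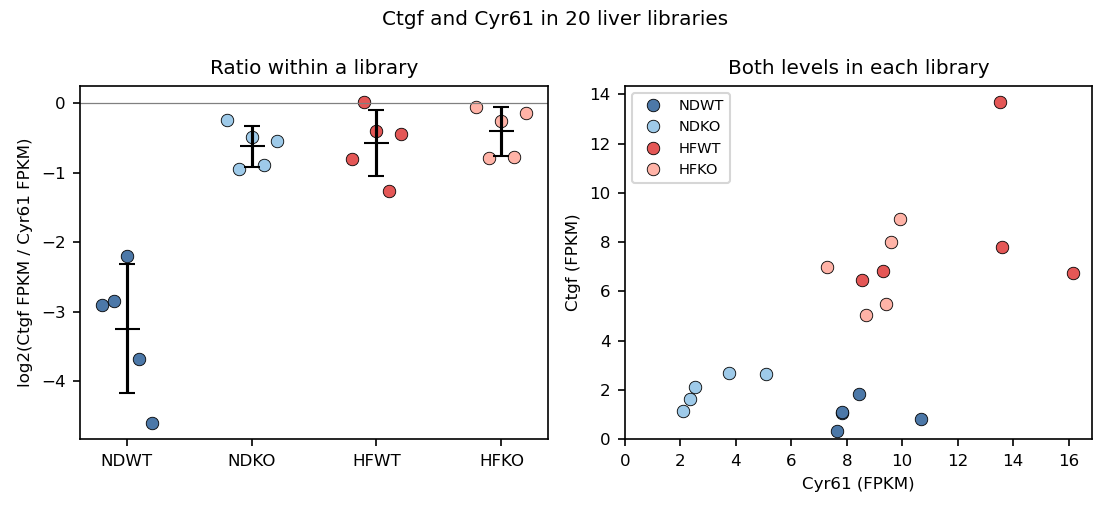
Left, log2 of the ratio of Ctgf to Cyr61 FPKM in each of the 20 libraries, with the group mean and bars of 1 SD (n = 5). Right, both levels in FPKM on linear axes, each point 1 mouse, where the NDWT mice lie along the bottom at Cyr61 levels of 7.64 to 10.7 and Ctgf levels of at most 1.85.

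Across the 10 mice of a diet, links between the paired genes were not established, and so few mice leave their strength uncertain. Over the 10 mice of the control diet, after removal of each group's mean, Ctgf and Cyr61 had Pearson r = 0.462 (permutation p = 0.16, adjusted over 6 relations 0.421) and Spearman rho = 0.648 (permutation p = 0.0486, adjusted 0.292), and r fell to 0.294 without the 2 mice farthest from the median. On CDAHFD they had r = 0.325 (permutation p = 0.361, adjusted 0.434) and rho = 0.418 (permutation p = 0.235, adjusted 0.446). Yap1 and Wwtr1 had r = 0.524 on the control diet and 0.42 on CDAHFD, and Smad7 and Skil had -0.089 and 0.357. No relation passed after adjustment (lowest adjusted p over the 6 relations, 0.421 for r and 0.292 for rho in permutation tests).

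The genes whose mouse-to-mouse variation around the group means was most like that of each of the 9, over the 20 libraries, are given as a description. Smad7 was closest to Midn (r = 0.952) and Sema6b (0.922), the highest values of any pair. Tgfbi was closest to Bgn (0.893) and Podn (0.884), both genes of matrix proteoglycans. Wwtr1 was closest to Bmpr2 (0.887), a BMP receptor, and Lrp6 (0.82), a Wnt co-receptor. Amotl2 was closest to Ccdc71l (0.881) and Zbed3 (0.876), Ankrd1 to Gm9574 (0.878) and Fgfr3 (0.842), and Skil to Ephb2 (0.869) and Tpd52 (0.826). Cyr61 was closest to Pvr (0.866) and Cys1 (0.788), Yap1 to Phlpp1 (0.828) and Palld (0.827), and Ctgf to Snx11 (0.783) and Dot1l (0.759). The libraries share a platform and differ in depth, and no p is attached to these values.

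Other genes of both pathways were followed as lists, to be read against the 44.1% of all genes called higher on CDAHFD in WT and 41.9% in mice labelled TSP-1 null, with median log2FC of 0.53 and 0.50. At an unadjusted p under 0.05 stood 27.3% of all genes for genotype on the control diet, 17.2% for genotype on CDAHFD and 15.1% for the interaction. Some list genes passed the low-value filter only through CDAHFD libraries, so the counts are also given with the filter on control diet libraries alone, where 37.9% and 35.9% of all genes were called higher. Of 18 other YAP and TAZ targets, 17 were tested, and on CDAHFD 13 were called higher in WT and 15 in mice labelled TSP-1 null, with 0 lower and median log2FC of 1.68 and 1.53. With the filter on control diet libraries alone it was 9 and 11 of 13 (medians 0.83 and 1.15). Myof, a membrane repair protein, rose from 0.782 ± 0.143 FPKM in NDWT to 13.2 ± 1.47 in HFWT (log2FC 3.91, FDR 1.09e-12). Ccdc80, a matrix protein, rose from 2.71 ± 0.106 to 28.2 ± 6.66 FPKM (log2FC 3.31, FDR 4.08e-13). Tgfb2, a TGF-β ligand counted in 2 of the lists, passed the filter only through CDAHFD libraries and was at 0.0972 ± 0.0323 FPKM in NDWT and 1.55 ± 0.456 in HFWT. Arhgef17, a guanine nucleotide exchange factor, rose from 0.599 ± 0.0402 to 3.67 ± 1.22 FPKM. The same 4 genes led the list by FDR in mice labelled TSP-1 null. On the control diet 1 gene of the list was called between genotypes, F3 (tissue factor), which was lower in NDKO at 1.42 ± 0.223 FPKM against 2.22 ± 0.417 (log2FC -0.61, FDR 0.00476), a call that was lost under both other scalings, at a pseudocount of 1 and when any 1 of 4 libraries (NDWT replicate 4, NDKO replicates 1, 2 and 4) was left out. By limma, 0 were called between genotypes on CDAHFD and 0 in the interaction, with 2 and 3 at an unadjusted p under 0.05.

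Of 19 Hippo kinases, adaptors and TEAD factors, all tested, 11 were called higher on CDAHFD in each genotype and 0 lower, with medians of 0.67 and 0.69 beside 0.53 and 0.50 over all genes. Of all genes, 44.1% and 41.9% were called higher. With the filter on control diet libraries alone, 9 of 17 were called higher in each, beside 37.9% and 35.9% of all genes. Map4k4, a kinase upstream of LATS, rose from 3.65 ± 0.496 FPKM in NDWT to 16.5 ± 1.55 in HFWT (log2FC 2.15, FDR 6.37e-12). Tead1, a DNA-binding partner of YAP and TAZ, rose from 0.814 ± 0.139 to 3.17 ± 0.718 FPKM (log2FC 1.83, FDR 3.94e-09). Amot, a YAP-binding angiomotin, rose from 0.938 ± 0.229 to 2.93 ± 0.131 FPKM (log2FC 1.57), and Mob1a, a LATS co-activator, from 9.70 ± 0.820 to 16.8 ± 1.01 FPKM (log2FC 0.79). With the shift of all genes scaled out by median of ratios, 5 of the list were called in WT and 6 in mice labelled TSP-1 null, and Mob1a was not among the calls (log2FC 0.23 and 0.39). Under that scaling 3299 of all 14524 genes were called higher and 2242 lower in WT. In mice labelled TSP-1 null it was 3225 and 1980. Between genotypes 0 were called by limma on either diet and 0 in the interaction, with 7, 4 and 0 of 19 at an unadjusted p under 0.05, beside 27.3%, 17.2% and 15.1% of all genes.

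Of 14 other TGF-β response genes, all tested, 13 were called higher on CDAHFD in each genotype and 0 lower, with medians of 2.001 and 1.91. Of all genes, 44.1% and 41.9% were called higher, with medians of 0.53 and 0.50. With the filter on control diet libraries alone, 12 of 13 were called higher in each, beside 37.9% and 35.9% of all genes. The collagen chain genes Col1a1 and Col1a2 rose from 1.28 ± 0.458 to 53.1 ± 19.9 FPKM and from 1.16 ± 0.158 to 23.5 ± 6.22 FPKM in WT (log2FC 5.26 and 4.20). Ltbp2, a matrix protein related to the latent TGF-β binding proteins, passed the filter only through CDAHFD libraries and was at 0.146 ± 0.0361 FPKM in NDWT and 5.17 ± 1.42 in HFWT. Tagln, a smooth muscle actin-binding protein, rose from 3.03 ± 0.278 to 15.2 ± 4.53 FPKM (log2FC 2.24). Activated stellate cells also make these proteins, and 3 genes of the list (Acta2, Col1a1 and Tagln) are among the 10 stellate and myofibroblast markers above, so the counts of the 2 lists are not separate. On the control diet 1 gene of the list was called lower in NDKO, Acta2, and 0 higher. By limma, 0 were called between genotypes on CDAHFD and 0 in the interaction, each with 2 at an unadjusted p under 0.05.

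Acta2 encodes alpha smooth muscle actin, a protein of contractile and activated stellate cells. It was at 0.700, 0.639, 0.631, 0.720 and 0.704 FPKM in NDWT (19 to 29 fragments per library) and at 0.082, 0.173, 0.390, 0.632 and 0.222 in NDKO (3 to 18 fragments). NDKO replicate 4 reached the level of the NDWT mice and the other 4 lay below all of them. The means were 0.679 ± 0.0408 and 0.300 ± 0.217 FPKM (log2FC -1.13, FDR 0.0155), and its call was lost at a pseudocount of 1 (FDR 0.132) and in a fit of these 2 groups alone (FDR 0.0547).

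Of 13 TGF-β signal transducers, 10 were called higher on CDAHFD in each genotype and 0 lower, with medians of 0.75 and 0.81. Of all genes, 44.1% and 41.9% were called higher, with medians of 0.53 and 0.50. With the filter on control diet libraries alone, 8 of 11 were called higher in each, beside 37.9% and 35.9% of all genes. The ligand gene Tgfb1 rose in WT from 4.43 ± 0.556 to 17.9 ± 1.94 FPKM (log2FC 1.99). Tgfb3 passed the filter only through CDAHFD libraries and was at 0.349 ± 0.0621 FPKM in NDWT and 3.603 ± 1.09 in HFWT. The type I receptor gene Tgfbr1 rose from 4.12 ± 0.309 to 12.1 ± 0.861 FPKM (log2FC 1.53, FDR 2.07e-11). Under median of ratios 5 were called higher and 1 lower in WT, beside 3299 higher and 2242 lower of all 14524 genes. Between genotypes 0 were called by limma on either diet and 0 in the interaction, with 1, 2 and 0 at an unadjusted p under 0.05.

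**Figure D4:**
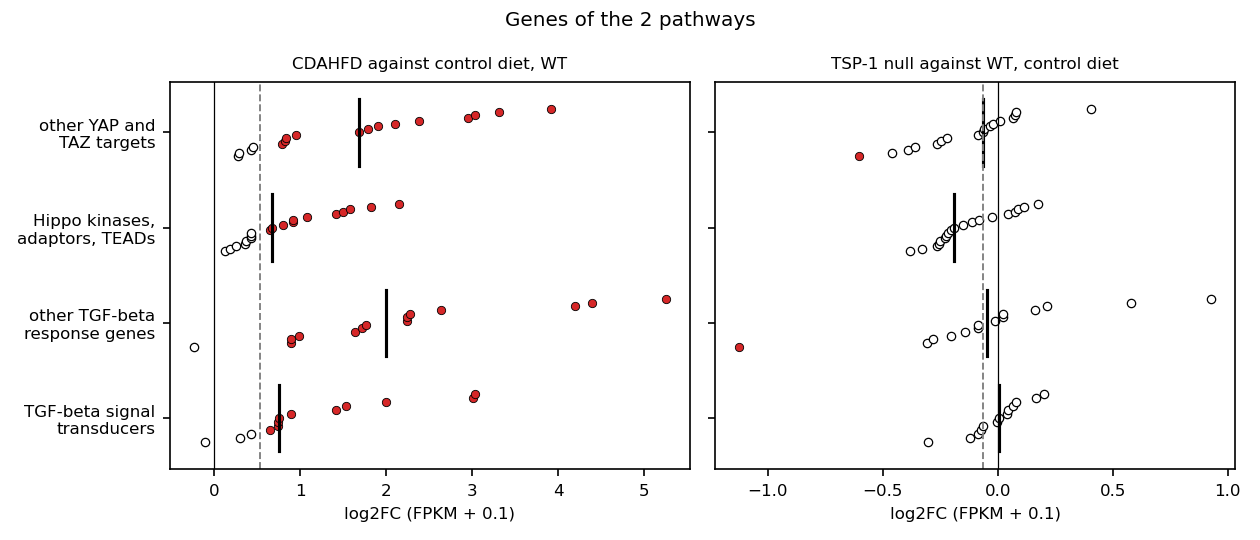
The log2FC of FPKM + 0.1 of each tested gene of the 4 pathway lists, for CDAHFD against control diet in WT on the left and for TSP-1 null against WT labels on the control diet on the right. Red points were called, the black bar is the median of a list and the dashed line the median of all tested genes, with 13 of 17, 11 of 19, 13 of 14 and 10 of 13 genes called on the left and F3 and Acta2 on the right.

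The order of the 4 groups differed from gene to gene. Ctgf ran from NDWT over NDKO and HFKO to HFWT, of which only NDKO and HFKO, as neighbours, did not overlap. Cyr61 ran from NDKO over NDWT and HFKO to HFWT, with a gap only between NDKO and NDWT (7.64 against 5.10 FPKM at the edges). Skil had its only gap at the same place, between the highest NDKO mouse (1.58 FPKM) and the lowest NDWT mouse (1.72). Smad7, Amotl2 and Yap1 had no gap between neighbouring groups. Tgfbi ran from NDWT over NDKO to HFKO with a gap at each step, and HFKO and HFWT overlapped. In Wwtr1 and Ankrd1 the single gap lay between the control diet and CDAHFD.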

How the data were processed

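RNA of 1 liver lobe per mouse was made into poly(A) libraries and sequenced as paired ends. Per the submitters' processing notes the authors used STAR 2.5.2 and featureCounts (Subread 1.5.1). The notes name build GRCh38, but of the 37607 of 38924 genes found in GENCODE M21 (mouse GRCm38), 99.82% overlap the same gene there. The authors deposited FPKM values per gene and library, with no counts, and whether counting used strand is not given in the sources used here. FPKM steps gave fragments back (within 0.1 of a whole number), which served only for depth. The 9 genes were found by symbol. limma 3.58.1 (R 4.3.3, trended eBayes) was fitted to log2(FPKM + 0.1) of all 20 libraries with a mean per group and no covariate, over 14524 genes above 0.5 FPKM in at least 5 libraries. Fold changes on that scale understate changes of low genes. The fit was tested on simulated data. FDR is the Benjamini-Hochberg value over all genes tested.

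The genes and lists were chosen with earlier results of these data known, so no count over a list is independent support. Genes outside the 9 were named where called, at most 4 per list and comparison by FDR, and as the 2 most alike in variation. The immediate early list and the Ctgf to Cyr61 ratio were chosen after the values were seen, as was a filter of 0.5 FPKM in at least 5 of the 10 control diet libraries. Each sample is a separate mouse, numbered within its group. Alternatives were other pseudocounts (0.01 and 1), filters, median of ratios and quantile scaling, no trend, no fold threshold, the 2 groups alone, a replicate block and each library left out. 1 gene of the TGF-β response list is not reported here. No sample was left out of the main comparisons.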

Additional observations from a re-analysis of the deposited data

Results flagged for a closer look

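In 6 of 48 groups of 5 mice examined (9 genes and Thbs1, Acta2 and F3, each in 4 groups), 1 mouse stood apart from its group by Dixon's criterion of a gap above 0.71 of the range, and chance alone gives about 1 in 20. Ctgf in HFWT replicate 2 was 13.67 FPKM, with the nearest mouse at 7.815. Cyr61 in NDWT replicate 4 was 10.66 FPKM (nearest 8.449), and Tgfbi in NDWT replicate 2 was 22.352 FPKM (nearest 18.867). Wwtr1 in HFWT replicate 4 was the lowest of its group at 8.549 FPKM (nearest 10.722). Thbs1 reached 4.398 FPKM in 1 HFKO mouse (nearest 3.316), and F3 reached 2.951 FPKM in 1 NDWT mouse (nearest 2.156).

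The genotype difference itself changed with diet in 1 gene named in the report. Thbs1, the targeted gene, had an interaction of -2.665 (log2, FDR 0.0023), higher in NDKO than NDWT against its label and overlapping on CDAHFD.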

How the results depend on the processing

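Of the 9 genes, 5 were called higher for diet in WT, Ankrd1 among them, and 3 under quantile normalization. Over all 14524 genes, the higher calls went from 6412 to 2721. For genotype on the control diet the 3 calls became 5 with no fold threshold and 1 in a fit of the 2 groups alone, and with 1 library left out they ranged from 1 (without NDWT replicate 1) to 3. Counts with 1 library left out ranged from 5 to 6 for diet in WT, 7 to 7 for diet in mice labelled TSP-1 null, 0 to 0 for genotype on CDAHFD and 0 to 1 for the interaction (Cyr61, without NDKO replicate 2). The ratio of Ctgf to Cyr61 differed by 2.28 to 2.88 between genotypes on the control diet and by 2.33 to 2.93 between diets in WT. The exact permutation p was 0.0159 in each run, the smallest possible with 1 mouse left out. Since the groups did not overlap, that p was fixed in advance and is no further check.

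Signs turned mainly where the shift of all genes was removed. Under median of ratios the diet log2FC in WT was -0.064 for Cyr61, -0.19 for Smad7 and -0.49 for Amotl2, and in mice labelled TSP-1 null -0.24 for Amotl2 and -0.37 for Yap1. Under quantile normalization it was -0.21 for Smad7 and -0.41 for Amotl2 in WT, and -0.18 for Amotl2 and -0.30 for Yap1 in mice labelled TSP-1 null. On CDAHFD the genotype log2FC of Wwtr1 was 0.015 under median of ratios. With 1 library left out it ranged from -0.192 to 0.008 for Smad7, -0.05 to 0.11 for Amotl2 and -0.028 to 0.054 for Yap1. Among the pathway lists, 15 calls of other YAP and TAZ targets for diet in mice labelled TSP-1 null became 9 under quantile normalization, and the 11 of the Hippo list in WT became 4. Over all 14524 genes, 6088 higher and 581 lower calls in mice labelled TSP-1 null became 2674 and 1954. In WT, 6412 higher and 671 lower calls became 2721 and 2309. The causes were not tested. In all, 3090 values outside the counts above kept sign and call, 36 lost a call, 7 gained one, 17 turned sign and 26 list counts moved by over 1.5 times. Many of these signs could not turn, so the tally does not measure stability. Leaving out a library of neither group compared keeps the log2FC the same, and the run without a fold threshold reused the main fit.

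Ctgf on the control diet also lost its call at a pseudocount of 1 (log2FC 0.60, FDR 0.0757), without the filter (FDR 0.0763), without the trend (FDR 0.0502) and in a fit of the 2 groups alone (FDR 0.0964), and Smad7 in the last (FDR 0.0617). Replicate numbers do not pair the mice, since libraries of the same number had correlations of deviations from -0.133 to 0.081 over 30 pairs. A replicate block left 5, 7, 3, 0 and 0 calls in the 5 comparisons, as without it. Depth limits Ankrd1 on the control diet, at 0 to 8 fragments per library.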
